A study of Mus musculus with 6 samples.

Results

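Cohesin is the ring-shaped complex that holds sister chromatids together and folds chromatin into loops, and RAD21 is the subunit that closes the ring. Its loss can damage chromosomes, and the p53 pathway is the usual transcriptional reporter of such damage. The messenger RNAs of Trp53, which encodes the transcription factor p53, and of 8 of its textbook target genes were followed here in single macrophages with and without Rad21. The 9 genes (Trp53, Mdm2, Cdkn1a, Ccng1, Btg2, Phlda3, Zmat3, Trp53inp1 and Sesn2) were chosen by name, and all 9 were found among the 18429 genes of the count matrix.

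Bone marrow-derived macrophages were profiled by MARS-seq, a plate-based method that tags each captured messenger RNA with a unique molecular identifier (UMI). All 6 samples carried Rosa26 creERT2/creERT2, an inducible Cre expressed from a ubiquitous locus, and all received 200 nM 4-hydroxy-tamoxifen at 96 h of culture, with the experiment on day 7. Wild-type cells were Rad21 WT/WT, while Rad21-/- cells were Rad21 lox/lox in which Cre removed the gene during culture, so both genotypes met Cre and tamoxifen. Cells of each genotype were untreated or were given lipopolysaccharide (LPS, a bacterial cell wall component) at 10 ng/ml for 2 h or 8 h. Each genotype and time point was 1 sample, so no difference below has a replicate check and no test was run.

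p53 protein is kept scarce by MDM2, the ubiquitin ligase that is itself a p53 target, so both proteins form a feedback loop. DNA breaks activate the kinases ATM and ATR, p53 escapes MDM2, and its targets rise: CDKN1A (p21) and BTG2 slow the cell cycle, cyclin G1 feeds back on MDM2, PHLDA3 restrains AKT, ZMAT3 is an RNA-binding growth suppressor, TP53INP1 favours cell death and SESN2 answers oxidative and nutrient stress. p53 activity is set mainly at the protein level, which these data do not measure. Several of these genes also have inducers other than p53.

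The RefSeq promoter windows (250 bases before to 50 after each annotated start, GRCm38.p6) were searched on both strands for the 10-base p53 half-site consensus and for the cyclic AMP response element TGACGTCA, which binds CREB and ATF factors. The windows covered 7 of the 9 genes in 8 windows. A half-site match stood in 4 of the 8 windows, against 8.36% of all 32851 windows, and the response element in the Btg2 window, against 1.79% of all windows. They are shown because p53, and for Btg2 the CREB and ATF factors, are known to bind such sequences. Capitals mark the matching bases, and each line reads 5′ to 3′ on the strand given.
Mdm2, chr10:117710925-117710954, minus strand: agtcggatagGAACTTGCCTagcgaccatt
Ccng1, chr11:40755452-40755481, minus strand: agacctgcccGGGCAAGCCTtggcactgaa
Trp53, chr11:69580274-69580303, plus strand: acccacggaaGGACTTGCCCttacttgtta
Cdkn1a, chr17:29090896-29090925, plus strand: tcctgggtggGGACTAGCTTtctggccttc
Cdkn1a, chr17:29090918-29090947, plus strand: tggccttcagGAACATGTCTtgacatgttc
Btg2, chr1:134079304-134079331, minus strand: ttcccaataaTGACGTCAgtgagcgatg

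All 6 sites lay upstream of the annotated start. A match is a description of the letters and not evidence of binding. Windows for Zmat3 and Trp53inp1 were not analysed here.

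The matrix held 1362 cells in 24 library pools. 17 wells with more than 25000 UMIs, which held between 1.71% and 45.5% of a sample's UMIs, were left out, and 1197415 to 1734640 UMIs in 181 to 267 cells remained per sample, with a median of 5544 to 7043 UMIs per cell. Levels are the summed UMIs of a gene per 1000000 UMIs of the sample (CPM) with exact 95% Poisson intervals, ratios are log2 of Rad21-/- over wild-type or of LPS over untreated with exact 95% conditional intervals, and shares of cells carry exact Clopper-Pearson intervals. All of these cover counting error only. A gene was called higher or lower when the ratio was at least 1.5-fold, among genes with at least 100 UMIs over the 6 samples. Of the 9 genes, 6 reached that filter, and Sesn2 (82 UMIs), Trp53inp1 (71) and Phlda3 (23) did not. Rad21 itself stood at 64.3 CPM untreated, 50.9 at 2 h and 34.1 at 8 h in wild-type cells, against 5.46, 8.01 and 6.92 CPM after its deletion. In RefSeq, Rad21 shares 2564 bases with a protein-coding gene (Gm52217), and reads there could not be told apart. All 10 macrophage markers were detected in every sample, although some differed in level between the genotypes (given below).

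**Figure D1:**
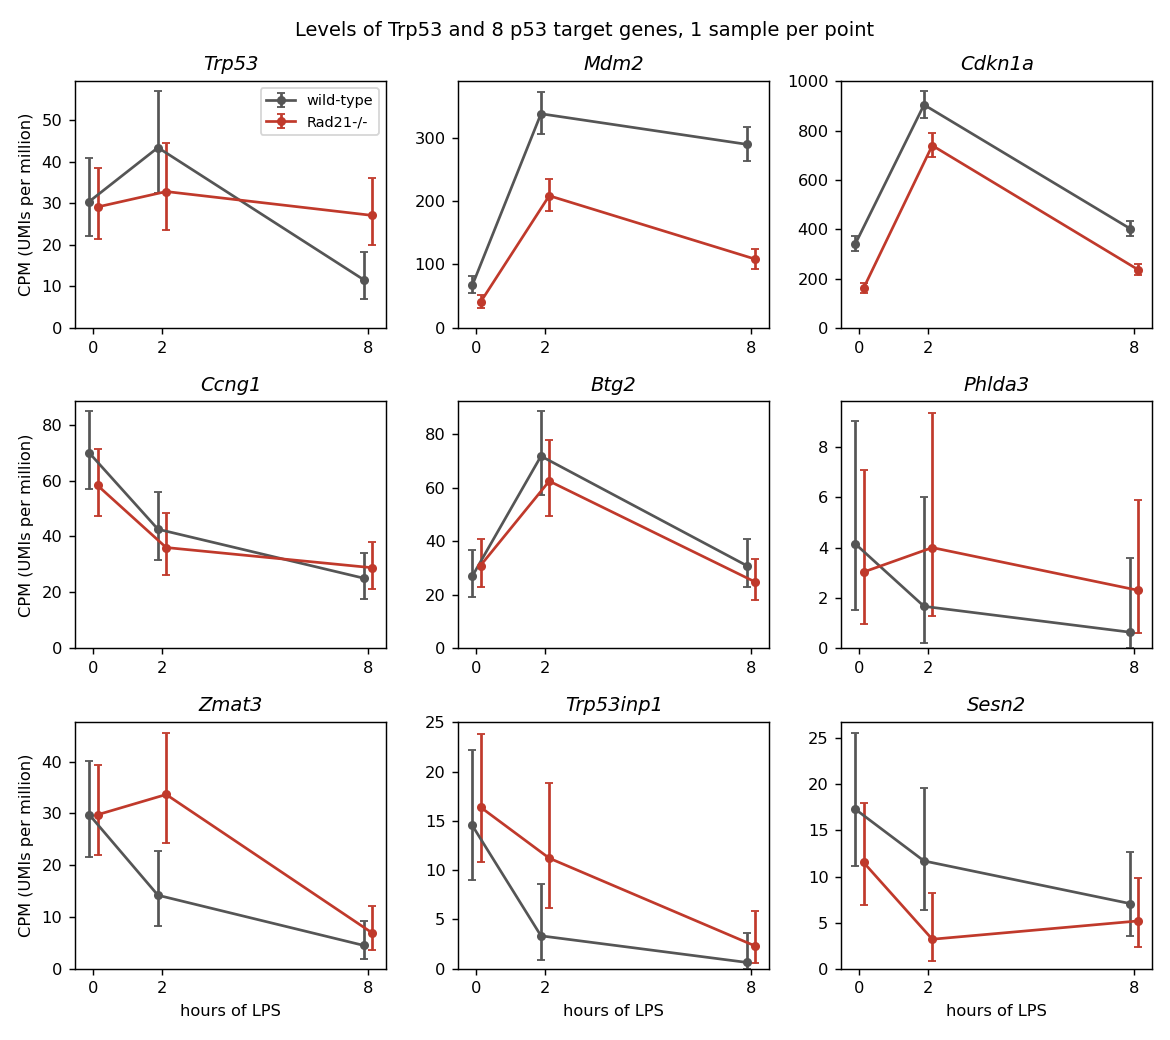
Levels of the 9 genes in CPM (vertical axes, each from 0) against hours of LPS, with wild-type in grey and Rad21-/- in red, 1 sample per point and bars for exact 95% counting intervals. Cdkn1a and Mdm2 were lower in Rad21-/- at each time, Trp53 separated at 8 h and Zmat3 at 2 h.

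Before stimulation, Cdkn1a and Mdm2 were lower in Rad21-/- macrophages and no gene of the 6 was called higher. The group as a whole showed no common direction at any time. The counts of called genes were 0 higher and 2 lower before stimulation, where 6.96% and 13.9% of all genes tested were called, 1 higher and 1 lower at 2 h (13.1% and 13% of all genes), and 2 higher and 2 lower at 8 h (25.1% and 9.4% of all genes). The median log2 ratio of the 6 genes was -0.16, -0.27 and -0.06, beside -0.05, 0.04 and 0.22 over all genes tested. With so few genes, these counts set nothing apart from the background, and the results below rest on single genes.

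Cdkn1a encodes p21, the inhibitor of cyclin-dependent kinases through which p53 stops the cell cycle. Its level was 341 CPM (312 to 373) in untreated, 905 (852 to 961) in 2 h and 403 (372 to 436) in 8 h wild-type cells. In Rad21-/- cells it was 161.4 (143 to 182), 740 (693 to 789) and 236 (213 to 260). Each Rad21-/- sample lay under its wild-type counterpart without overlap of the intervals. The log2 ratio was -1.08 (-1.30 to -0.86) in untreated cells, -0.29 (-0.42 to -0.16) at 2 h, which is under 1.5-fold, and -0.77 (-0.96 to -0.59) at 8 h. At 8 h the ratio fell short of 1.5-fold with all wells kept (-0.53) and after thinning each cell to 3800 UMIs (-0.55). From the highest to the lowest sample the order was wild-type 2 h, Rad21-/- 2 h, wild-type 8 h, wild-type untreated, Rad21-/- 8 h and Rad21-/- untreated, and each neighbour differed from the next by more than counting error.

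Fewer Rad21-/- cells held Cdkn1a RNA. The share of cells with a UMI was 68.9% (62.6 to 74.7) in untreated wild-type and 44.9% (38.9 to 51.1) in untreated Rad21-/- cells, 95.6% and 94.02% at 2 h, then 77.9% (72.2 to 82.8) and 63.5% (56.8 to 69.9) at 8 h. With every cell thinned to 3800 UMIs wild-type shares were 59.9% untreated, 93.9% at 2 h and 65.4% at 8 h, beside 35.9%, 81.8% and 48.8% for Rad21-/-. Positive untreated cells held 3.01 UMIs on average in wild-type and 2.22 in Rad21-/-, and positive cells at 2 h held 6.27 and 5.34. Thus the share and the amount per positive cell were both lower in Rad21-/- in the untreated sample. No cell type that lacks these genes was sampled, so the part of a share that comes from free RNA has no measured level here.

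Mdm2 encodes the ligase that ubiquitinates p53. It stood at 67.1 CPM (54.4 to 81.9) in untreated, 337 (305 to 372) in 2 h and 289 (263 to 317) in 8 h wild-type cells. The corresponding Rad21-/- levels were 40.7 (31.5 to 51.6), 208 (184 to 235) and 108.4 (93.4 to 125). All 3 Rad21-/- values were below the wild-type ones, with log2 ratios of -0.72 (-1.19 to -0.26), -0.70 (-0.93 to -0.47) and -1.42 (-1.67 to -1.17). The untreated ratio fell under 1.5-fold with all wells kept (-0.55). At 8 h, 77.5% (71.8 to 82.5) of wild-type cells and 50.5% (43.7 to 57.2) of Rad21-/- cells held an Mdm2 UMI, and 65.8% and 30.0% did after thinning. The 6 samples ranked as wild-type 2 h, wild-type 8 h, Rad21-/- 2 h, Rad21-/- 8 h, wild-type untreated and Rad21-/- untreated, with each step beyond counting error.

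**Figure D2:**
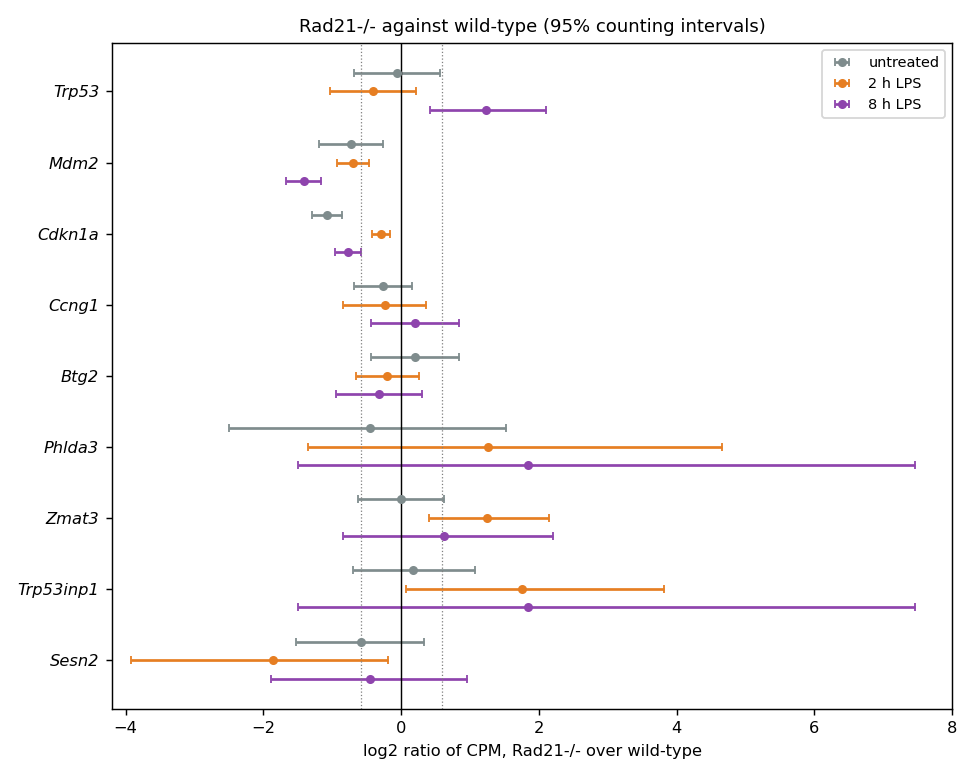
Log2 ratio of CPM, Rad21-/- over wild-type (horizontal axis), for the 9 genes untreated (grey), at 2 h (orange) and at 8 h of LPS (purple), with exact 95% counting intervals, a solid line at equality and dotted lines at 1.5-fold. The intervals of Cdkn1a and Mdm2 lie left of equality at all 3 times, and those of Trp53 at 8 h and of Zmat3 and Trp53inp1 at 2 h lie right of it.

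Each library pool held cells of 1 time point and most held both genotypes, so both could be compared inside a pool with at least 10 cells of each. Cdkn1a was lower in Rad21-/- in all 8 untreated pools, all 4 pools of the 2 h time point and all 6 of the 8 h time point, although in 1 untreated pool the levels were nearly equal (204 against 205 CPM). Mdm2 was lower in 6 of 8, 4 of 4 and 6 of 6 pools. Among the 8 h pools, wild-type Mdm2 ranged from 225 to 319 CPM and Rad21-/- Mdm2 from 77.4 to 139, so the ranges did not overlap. Cdkn1a at 8 h ranged from 281 to 451 and from 112.6 to 351, which overlap. Combined within pools, the log2 ratios of Cdkn1a were -1.07, -0.26 and -0.80 and those of Mdm2 were -0.75, -0.69 and -1.44. The labels do not say whether the pools of a condition came from 1 or several cultures or mice, and pools were not counted as replicates.

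**Figure D3:**
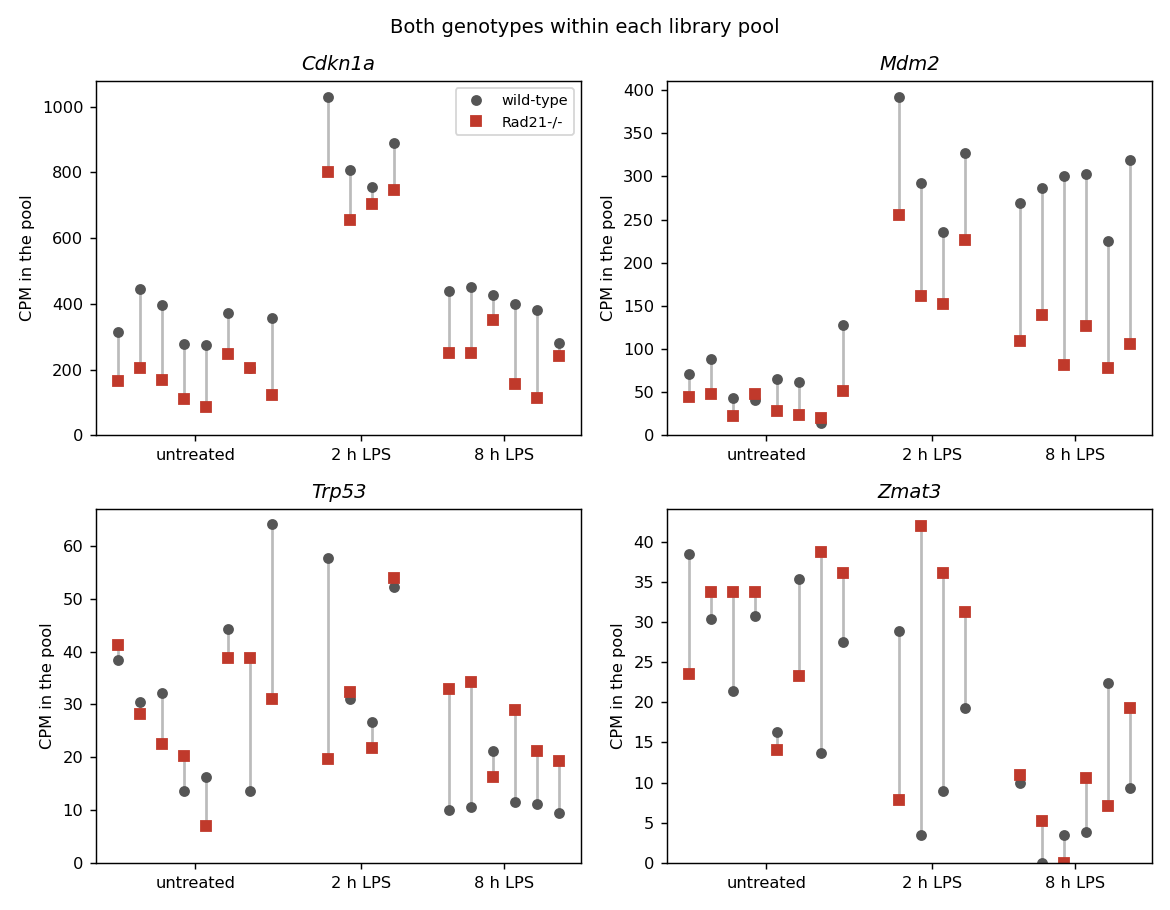
CPM (vertical axes, from 0) of 4 genes in wild-type (grey circles) and Rad21-/- cells (red squares) of the same library pool, joined by a line, with pools grouped by time. The red squares of Cdkn1a lie at or below the grey circles in all 18 pools, while Zmat3 crosses in both directions among untreated pools.

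Trp53 RNA differed between the genotypes beyond counting error at 8 h only. It stood at 30.4 CPM (22.1 to 40.9) in untreated, 43.4 (32.4 to 56.9) in 2 h and 11.6 (6.86 to 18.3) in 8 h wild-type cells, against 29.1 (21.5 to 38.6), 32.8 (23.6 to 44.6) and 27.1 (19.9 to 36.0) in Rad21-/-. The 8 h wild-type sample was the lowest of the 6, and each of the other 5 differed from its neighbour in the order by no more than counting error. The log2 ratio at 8 h was 1.23 (0.42 to 2.10), from 47 UMIs against 18, and Rad21-/- was higher in 5 of 6 pools. Against the median of all genes at 8 h (0.22) the excess was 1.01. After thinning the 8 h ratio was 0.80. A Trp53 UMI was then found in 4.82% (2.43 to 8.47) of wild-type and 7.88% (4.57 to 12.5) of Rad21-/- cells, with overlapping intervals. The untreated ratio was -0.06 (-0.68 to 0.56) and the 2 h ratio was -0.40 (-1.03 to 0.22). At 8 h, Mdm2 was therefore lower and Trp53 higher in Rad21-/- than in wild-type.

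Zmat3, whose product binds AU-rich RNA, was the only other of the 6 filtered genes called higher in Rad21-/-. Its level was 29.8 CPM (21.5 to 40.1) in untreated, 14.2 (8.27 to 22.7) in 2 h and 4.50 (1.81 to 9.27) in 8 h wild-type cells. In Rad21-/- it was 29.7 (22.0 to 39.3), 33.6 (24.2 to 45.5) and 6.92 (3.57 to 12.1). The untreated samples were alike in level, and the log2 ratio at 2 h was 1.24 (0.40 to 2.15). Rad21-/- was higher in 3 of 4 pools at 2 h, and without the pool of 44 wild-type and 46 Rad21-/- cells, which went the other way, the ratio was 1.94. The 8 h ratio of 0.62 (-0.84 to 2.20) rests on 12 and 7 UMIs, and its interval takes in equality. It was 0.35 within pools, 0.46 as mean CPM per cell and 0.40 with median-of-ratios size factors. With all wells kept it was 0.74, and after thinning 1.75, so its call depends on the setting. In RefSeq, Zmat3 overlaps a long noncoding RNA gene (4930429B21Rik), and reads there could not be told apart.

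Ccng1 and Btg2, cell cycle genes downstream of p53, did not differ between the genotypes beyond counting error at any time when all UMIs of the kept cells were summed. Ccng1, which encodes cyclin G1, stood at 69.9, 42.6 and 25.1 CPM in wild-type samples, beside 58.3, 36.0 and 28.8 for Rad21-/-, with log2 ratios of -0.26 (-0.68 to 0.16), -0.24 (-0.85 to 0.37) and 0.20 (-0.43 to 0.84). After thinning to 3800 UMIs per cell, however, the 2 h ratio of Ccng1 was -1.30, past 1.5-fold and outside that interval, with a UMI in 16.4% (11.07 to 22.9) of wild-type and 7.14% (3.62 to 12.4) of Rad21-/- cells. Btg2, which encodes an antiproliferative partner of the deadenylase complex, stood at 27.0, 71.8 and 30.8 CPM in wild-type samples, beside 31.0, 62.5 and 24.8 for Rad21-/-, with ratios of 0.20 (-0.43 to 0.84), -0.20 (-0.66 to 0.26) and -0.32 (-0.94 to 0.31). Each of these 6 intervals took in a 1.5-fold change in one direction and left it out in the other. A 1.5-fold fall lay inside for Ccng1 untreated and at 2 h and for Btg2 at 2 h and 8 h, and a 1.5-fold rise for Ccng1 at 8 h and untreated Btg2.

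The remaining 3 genes were near the limit of detection. Trp53inp1 gave 21, 4 and 1 UMIs in wild-type samples, beside 27, 14 and 4 for Rad21-/-, and its 2 h log2 ratio was 1.75 (0.08 to 3.81). Rad21-/- was higher in 4 of 4 pools, but the ratio shrank to 0.79 with all wells kept. Sesn2 gave 25, 14 and 11 UMIs in wild-type samples, beside 19, 4 and 9 for Rad21-/-, with a 2 h ratio of -1.87 (-3.93 to -0.20) and lower values in 4 of 4 pools. At 2 h these stress genes thus had opposite signs. Phlda3 gave 6, 2 and 1 against 5, 5 and 4 UMIs, and no ratio of it could be told from equality at this depth.

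After LPS, Mdm2, Cdkn1a and Btg2 rose within 2 h in both genotypes. The 2 h and 8 h ratios of a genotype share its untreated sample. Mdm2 rose in wild-type cells by a log2 ratio of 2.33 (2.01 to 2.66) at 2 h and 2.11 (1.79 to 2.44) at 8 h, and in Rad21-/- cells by 2.36 (1.96 to 2.77) and 1.41 (1.00 to 1.84). The 2 h values of both genotypes lay inside each other's intervals, the 8 h values did not, and the difference of the responses has no test. Cdkn1a rose at 2 h by 1.41 (1.25 to 1.56) in wild-type and by 2.20 (2.00 to 2.40) in Rad21-/-, where the untreated level was lower. At 8 h it was 0.24 (0.07 to 0.41) and 0.55 (0.32 to 0.77), both under 1.5-fold. The Rad21-/- value passed 1.5-fold with all wells kept (0.66), after thinning (0.83) and barely with median-of-ratios size factors (0.59). It did not as mean CPM per cell (0.50). With size factors the wild-type value was 0.55. Btg2 rose at 2 h by 1.41 (0.85 to 2.00) and 1.01 (0.49 to 1.55) and was back near the untreated level at 8 h, at 0.19 and -0.32.

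Among the other filtered genes, Zmat3 and Ccng1 fell by 8 h of LPS in both genotypes, and Trp53 in wild-type only. Zmat3 was lower at 8 h by a log2 ratio of -2.73 (-4.12 to -1.56) in wild-type and -2.10 (-3.15 to -1.17) in Rad21-/-. At 2 h it was already lower in wild-type, at -1.07 (-1.97 to -0.23), while the Rad21-/- value was 0.18 (-0.45 to 0.80). Ccng1 at 8 h was -1.48 (-2.05 to -0.93) and -1.02 (-1.54 to -0.51). At 2 h Ccng1 was -0.71 (-1.23 to -0.21) and -0.69 (-1.24 to -0.17). Both values were under 1.5-fold with all wells kept (-0.26 and -0.43). They were also under it without the 2 h pool of 42 wild-type cells (-0.56 and -0.38), and without the 2 h pool of 46 (-0.47 and -0.46). After thinning the wild-type value was -0.54, and the Rad21-/- value moved the other way, to -1.65. Trp53 at 8 h was -1.40 (-2.27 to -0.58) in wild-type and -0.10 (-0.72 to 0.51) in Rad21-/-. Of the genes under the filter, Trp53inp1 at 8 h was -4.50 (-9.87 to -1.86), from 1 UMI, and -2.83 (-4.80 to -1.31). Sesn2, also under the filter, was -1.29 (-2.46 to -0.22) and -1.15 (-2.48 to 0.06).

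Among the 6 filtered genes, 3 were called higher and 2 lower at 2 h in wild-type (9.47% and 15.8% of all genes), 3 and 1 in Rad21-/- (10.8% and 11%), 1 and 3 at 8 h in wild-type (11.7% and 32.4%) and 1 and 2 in Rad21-/- (15.2% and 15.6%). The median of all genes lay at -0.11 at 2 h and -0.27 at 8 h in wild-type and at -0.02 at both times in Rad21-/-. Relative to that median, the wild-type 8 h values were 2.38 for Mdm2, -1.12 for Trp53, -1.21 for Ccng1 and -2.45 for Zmat3, so no direction turned. The p53 targets therefore did not move as 1 unit after LPS: Mdm2, Cdkn1a and Btg2 rose in both genotypes at 2 h, Ccng1 and Zmat3 were lower in both at 8 h.

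**Figure D4:**
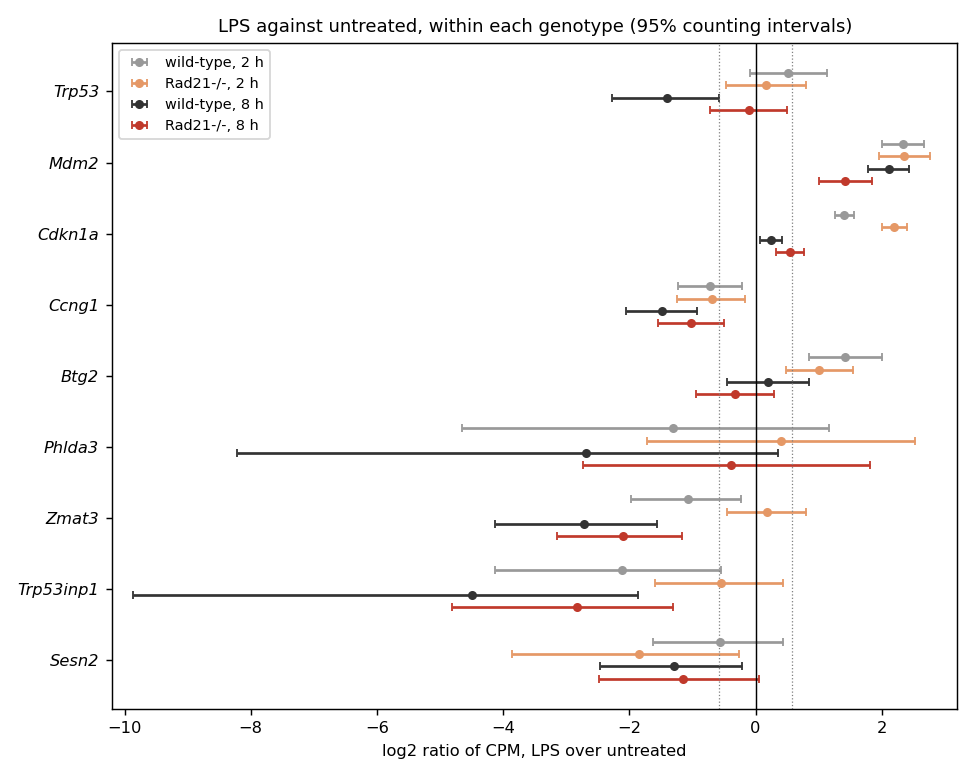
Log2 ratio of CPM, LPS over untreated (horizontal axis), at 2 h and 8 h for wild-type (light and dark grey) and Rad21-/- cells (orange and red), with exact 95% counting intervals and dotted lines at 1.5-fold. Mdm2 lies right of equality in all 4 comparisons and Zmat3 and Trp53inp1 lie left of it at 8 h in both genotypes.

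Counted per cell after thinning to 3800 UMIs, the number of the 9 genes detected in a cell averaged 1.44 in untreated, 2.25 in 2 h and 1.57 in 8 h wild-type cells, with SDs over cells of 1.02, 0.967 and 0.844. In Rad21-/- cells it averaged 1.08, 1.90 and 1.10, with SDs of 0.981, 0.971 and 0.875. None of the 9 was detected in 19.8% of untreated wild-type and 33.6% of untreated Rad21-/- cells, and 4 or more were detected in 3.12% and 0.897%. At 2 h and 8 h, 4 or more were detected in 9.70% and 1.75% of wild-type cells, beside 5.19% and 0% of Rad21-/- cells. These tallies include Trp53 itself, and also Cdkn1a and Mdm2, whose shares were lower in Rad21-/-. They are therefore a description and no separate result on cells with many p53 targets.

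Genes of a wider list of p53 targets were also called in both directions. The counts before stimulation and of higher genes at 8 h were near the shares of all genes. The counts at 2 h and of lower genes at 8 h were above those shares. No count was tested, so whether the list as a whole differs from the background is not known here. Of 34 listed genes 31 were measured and 21 passed the filter, and after Rad21 loss 2 were higher and 4 lower before stimulation (6.96% and 13.9% of all genes), then 4 and 6 at 2 h (13.1% and 13%), then 6 and 5 at 8 h (25.1% and 9.4%). Gdf15, a stress-induced cytokine, was lower at all 3 times, with log2 ratios of -1.97 (-2.43 to -1.54), -1.56 (-1.70 to -1.41) and -1.45 (-1.74 to -1.17). Plk2, a polo-like kinase, was lower by -2.30 (-3.29 to -1.41), -2.39 (-2.79 to -2.02) and -2.67 (-3.43 to -1.97). Gadd45a, a growth arrest and DNA damage gene, gave 22 UMIs in untreated wild-type and 5 in untreated Rad21-/- cells, a ratio of -2.33 (-4.08 to -0.89). Sesn1, a sestrin like Sesn2, went the other way at 0.68 (0.37 to 1.00), 2.10 (1.54 to 2.69) and 1.61 (0.98 to 2.29). Bbc3, which encodes the death protein PUMA, was at 0.59 (0.00 to 1.20) in untreated cells, and Cd82 at 2 h and 8 h was at 0.82 (0.30 to 1.35) and 1.14 (0.67 to 1.64). Tap1, a peptide transporter also induced by interferon, was at -1.83 (-2.70 to -1.03) at 2 h and -1.36 (-1.64 to -1.09) at 8 h. The 6 called genes before stimulation were Bbc3, Sesn1, Gadd45a, Plk2, Gdf15 and Tap1. The interval left out equality for 3 of the higher and 3 of the lower ones at 2 h, and for all called ones before stimulation and at 8 h. At 2 h the 4 higher ones were Sesn1, Cd82, Triap1 and Fas, and the 6 lower ones were Plk2, Gdf15, Tap1, Bbc3, Gadd45a and Ddb2. At 8 h the 6 higher ones were Bax, Rps27l, Triap1, Sesn1, Ei24 and Cd82, and the 5 lower ones were Plk2, Gdf15, Tap1, Bcl6 and Ier3. Bax, which encodes a death effector at mitochondria, stood at 245 CPM (222 to 269) in Rad21-/- at 8 h, a log2 ratio of 0.99 (0.74 to 1.24), and Rps27l was at 0.65 (0.44 to 0.85), beside the median of 0.22 over all genes at that time.

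After LPS the wider list also moved both ways, with 5 higher and 4 lower at 2 h (9.47% and 15.8% of all genes) and 6 and 6 at 8 h (11.7% and 32.4%) in wild-type. In Rad21-/- there were 8 and 3 at 2 h (10.8% and 11%) and 7 and 5 at 8 h (15.2% and 15.6%). The counts of higher genes were above the shares of all genes in both genotypes at both times. The 6 lower ones in wild-type at 8 h were near the share of all genes, and no count was tested. Gdf15 at 2 h rose by 3.23 (3.01 to 3.45) in wild-type and 3.65 (3.25 to 4.07) in Rad21-/-. Ier3, an immediate-early response gene, rose by 3.79 (3.13 to 4.53) and 3.56 (2.96 to 4.22). Sesn1 at 8 h was at -2.39 (-3.04 to -1.78) and -1.46 (-1.82 to -1.10), the direction of Zmat3 and Ccng1. Of 12 measured regulators of p53 and damage kinases 8 passed the filter, and between the genotypes 0 were higher and 1 lower before stimulation (6.96% and 13.9% of all genes), 0 and 0 at 2 h (13.1% and 13%), then 2 and 1 at 8 h (25.1% and 9.4%), with an interval that left out equality for 1 of these 4 calls. The 8 h counts are near the shares of all genes. They were Atr, lower before stimulation and at 8 h, and Rchy1 and Trp53bp1, higher at 8 h, all named after their values were seen.

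Other gene groups moved with the genotype beside these genes. Of 17 filtered cell cycle genes, 14 were lower in Rad21-/- in untreated cells (13.9% of all genes) and 16 at 2 h (13%), with a median log2 ratio of -0.92 and -1.93. At 8 h 5 were higher (Top2a, Cdk1, Birc5, Mcm3 and E2f1) and 2 lower (Pcna and Tyms), where 25.1% and 9.4% of all genes were. The 2 measured B cell markers summed to 51.2, 24.2 and 23.8 CPM in wild-type samples, beside 180, 170 and 165 for Rad21-/-, almost all from Ighm. Of the 10 macrophage markers, 0 were higher and 4 lower (Lyz2, Adgre1, Mertk and Cd14) in untreated Rad21-/- cells (6.96% and 13.9% of all genes). At 2 h 2 were higher and 2 lower (13.1% and 13%), and at 8 h 3 and 3 (25.1% and 9.4%). The intervals of all these marker calls left out equality. The part of these 3 groups in the differences of the p53 genes was not tested. The other marker lists were measured only in part: 2 of 5 T cell, 3 of 8 neutrophil and progenitor, 3 of 4 stromal and 2 of 4 dendritic genes. Each list summed to between 8.65 and 58.2 CPM in all 6 samples, beside 14552 to 18963 for the 10 macrophage markers. With so few genes measured, these sums do not show that such cells were absent.

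Genes whose level over the 6 samples was most like that of Mdm2 were Rapgef2 and Zfp36, with Pearson correlations of log2(CPM + 1) of 0.998 and 0.994 over 6 samples, and for Cdkn1a they were Mcl1 and Gdf15, with 0.987 and 0.980. These are descriptions over 6 points dominated by the LPS time course. Of 3059 genes with at least 500 UMIs, 1.77% reached 0.9 with Mdm2 and 1.18% with Cdkn1a.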

How the data were processed

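Single macrophages were sorted into plates and sequenced by MARS-seq. Per the study's methods, the authors split reads by their pool and cell barcodes, mapped them to GRCm38.p4, merged reads that shared a gene and a UMI, and removed wells of low quality. The deposited values are unnormalized UMI counts. Column names gave the sample and pool of each of the 1362 cells, and no cell name was shared between samples. Wells over 25000 UMIs were left out. UMIs were summed per sample and scaled to counts per 1000000 UMIs (CPM), and no test was run, since each condition was 1 sample. A higher or lower call needs a ratio of at least 1.5-fold and at least 100 UMIs over all samples. The words rose and fell are used where the 95% interval also leaves out equality. Thinning drew 3800 UMIs per cell without replacement from a fixed seed, and shallower cells were left out (21 to 47 per sample).

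The members and lists were chosen with earlier results of these data known. The named genes are the 9 members, the 2 genes most like each member with at least 500 UMIs, up to 3 genes in each direction per comparison from the wider list of p53 targets, and Rad21, Mki67 and Top2a. Other genes named among the called members of a list, with Bax, Rps27l and Ighm, were chosen after their values were seen. Lists were matched by symbol, and listed genes without a match (among them Ddit4, Perp and Cdkn2a) were not analysed here. Reads were counted from transcript ends, so levels are not compared between genes. Alternatives were all wells, mean CPM per cell, thinning, median-of-ratios size factors, a fold of at least 2, 300 UMIs or no filter, at least 2 UMIs per positive cell, and leaving out each pool. Combining ratios within pools was added after the data were seen. Promoter windows came from RefSeq (GRCm38.p6), and the genome provided here was of another build and was not used. Python 3.11.15, numpy 2.4.6, pandas 2.3.3, scipy 1.17.1 and matplotlib 3.10.9 were used, and the ratio step was tested on simulated data.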

Additional observations from a re-analysis of the deposited data

How the results depend on the processing

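Depth and the lack of replicates limit these results: 3 of the 9 genes gave under 100 UMIs in all, and intervals cover counting error only. The genotypes were paired only within library pools (values in the report), and no paired test was run, since each condition is 1 sample. Under the alternatives run, 10 recomputed log2 ratios of single genes moved out of their main interval and 1035 did not, and no called ratio changed sign. Leaving out a pool gave 1 of the moved and 769 of the unmoved values, and these share most cells with the main value. Thinning moved 5 and left 54. All wells kept moved 2 and left 61, and size factors moved 2 and left 61. Ratios with a count of 0 on either side, which arose for Phlda3, Trp53inp1 or Sesn2 after thinning or without a pool, were left out. In all, 89 shares of cells moved, all under thinning or a minimum of 2 UMIs, which lower shares by construction. The counts of called genes moved by more than 1.5 times as follows (in the report: Rad21-/- against wild-type 0 higher and 2 lower untreated, 1 and 1 at 2 h, 2 and 2 at 8 h; wild-type LPS 3 and 2, then 1 and 3; Rad21-/- LPS 3 and 1, then 1 and 2). With all wells kept, the filter of 100 UMIs was applied to all wells too, so Sesn2 also entered the counts. The genotype counts were then 1 lower untreated, 2 lower at 2 h (Mdm2 and Sesn2) and 1 lower at 8 h. LPS then gave 1 lower in wild-type at 2 h and 2 higher in Rad21-/- at 8 h. The count of 1 lower in Rad21-/- after 2 h of LPS stayed, but the gene was Sesn2 (-1.29) in place of Ccng1 (-0.43). Mean CPM per cell gave 2 lower at 2 h and 1 higher at 8 h. Thinning gave 2 lower at 2 h and 1 lower at 8 h, with 1 lower after LPS in wild-type at 2 h and 2 higher in Rad21-/- at 8 h. Size factors gave 1 higher at 8 h and 2 higher in Rad21-/- after 8 h of LPS, and combining within pools gave 1 higher at 8 h. A fold of at least 2 left 1 lower untreated, 0 lower at 2 h, 1 higher and 1 lower at 8 h, 1 lower in wild-type and 0 lower in Rad21-/- after 2 h of LPS. A minimum of 300 UMIs left 0 higher at 2 h and at 8 h, and 1 lower after LPS in wild-type at 2 h and 8 h and in Rad21-/- at 8 h. No filter gave 3 higher and 2 lower at 2 h, 4 higher at 8 h, 4 and 6 lower in wild-type and 2 and 4 lower in Rad21-/- after LPS. Leaving out 1 pool gave 1 to 2 lower at 2 h and 1 to 2 higher at 8 h between genotypes, 1 to 2 lower in wild-type and 0 to 1 lower in Rad21-/- after 2 h of LPS, and 1 to 2 higher in Rad21-/- after 8 h. The cause of these shifts was not tested. Ccng1 after thinning was at -1.30 between genotypes at 2 h and at -1.65 in Rad21-/- after 2 h of LPS. Cdkn1a was at -0.85 untreated with all wells kept, and at 8 h at -0.99 with size factors and -0.96 without the pool of 43 wild-type and 44 Rad21-/- cells.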

Other observations

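Cdkn1a and Mdm2 RNA were set against each other within cells. After thinning, Mdm2 was detected in 25.2% of untreated wild-type cells with Cdkn1a and in 11.7% of those without it (29 and 9 cells). In untreated Rad21-/- cells these values were 15% and 11.2%. At 2 h Mdm2 was detected in 63.9% of wild-type cells with Cdkn1a and 70% of the 10 cells without it, beside 53.97% and 53.6% for Rad21-/-. At 8 h wild-type cells gave 65.8% and 65.8%, beside 32.3% and 27.9% for Rad21-/-. The direction was thus not the same at every time, and at these counts the values are descriptions only.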
